A study of Mus musculus with 9 samples.

Results

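Reactive astrocyte genes are transcripts that astrocytes raise after injury, infection or inflammation of the brain. The 10 genes described here are Gfap, Vim, Lcn2, Steap4, Cd44, S1pr3, Aspg, Timp1, Cd109 and Emp1, and they are 10 of the 18193 genes that the array annotation names through a probe set with a single symbol. They were taken with all 22 of their probe sets by gene symbol. Bulk brain tissue from around the injection site was profiled on Affymetrix arrays, in 3 adult male immunocompetent BALB/c mice per group, with 1 array per labelled biological replicate. MC+HS mice were injected with the baculoviral vector BV-HSVtk after membrane chromatography and high-speed centrifugation of the preparation. HS mice were injected with BV-HSVtk cleaned only by spinning at high speed. Vector mice received 100000000 viral particles in 10 µl into the striatum on each side. The mock group received an Sf9 insect cell culture medium without baculovirus that had passed through the MC+HS purification. The tissue of vector mice was collected 2 days after injection. HS and mock mice therefore differed in vector and in purification together, whereas MC+HS and mock mice differed in the vector within the same purification. All animals had a needle injection, and an uninjected brain was not analysed here. The study set out to compare how the brain responds to vector from the 2 purifications.

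Astrocytes support neurons, synapses and the blood-brain barrier, and they answer damage with a change of state called reactive gliosis. The intermediate filament proteins GFAP and vimentin accumulate, and secreted proteins, receptors and enzymes appear that resting astrocytes make little of. In mouse, gp130 cytokines of the IL-6 family acting through STAT3, together with microglial signals such as IL-1, TNF and C1q, are known inducers of this state. Gfap, Vim, Lcn2, Steap4, Cd44, S1pr3, Aspg and Timp1 belong to a set described as shared by several kinds of injury (pan-reactive), while Cd109 and Emp1 belong to a set described after ischaemia (A2). None of these genes is exclusive to astrocytes. In bulk tissue, more cells of a type and more RNA per cell cannot be told apart.

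Array values are given as log2(signal + 16) with array medians aligned, so that a difference of 1 is a doubling, and the added 16 understates the change of dim genes. One array stood apart from the rest: HS replicate 1 had a median correlation of 0.805 with the other arrays, where each of the other 8 had between 0.972 and 0.982. The spread of its log2 values was 1.54 (SD over probe sets), against 2.17 to 2.39 on the other arrays, and its ratio of 3' to 5' Gapdh control probe sets was 2.00, against 0.865 to 0.932. The median 95% half-width of a log2 difference over tested genes was 0.603 with all 9 arrays, and 0.290 for MC+HS against mock without HS replicate 1. Each result below is therefore given with all 9 arrays and in a fit of the other 8 arrays, without HS replicate 1. The limma test sets a difference against the spread between mice and arrays within groups, estimated over all groups together. HS replicate 1 therefore also enters the test of MC+HS against mock when it is in the fit.

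The promoters of Gfap, Steap4, Lcn2 and Emp1 are shown because the genes stand for a filament gene, the gene called with all arrays, the gene with the widest range and a gene not called in either setting, and because STAT3 acts at such sites. They are RefSeq sequences of GRCm38.p6, read 5' to 3' on the gene's strand, from 250 bases before the annotated start to 50 bases after it. Capitals mark each match to TTCNNNGAA, the palindrome that STAT proteins bind, which reads the same on both strands. The windows are chr11:102897151-102897450 (minus strand) for Gfap, chr5:7960222-7960521 (plus strand) for Steap4, chr2:32387690-32387989 (minus strand) for Lcn2 and chr6:135362681-135362980 (plus strand) for the first of the 2 annotated starts of Emp1.
Gfap: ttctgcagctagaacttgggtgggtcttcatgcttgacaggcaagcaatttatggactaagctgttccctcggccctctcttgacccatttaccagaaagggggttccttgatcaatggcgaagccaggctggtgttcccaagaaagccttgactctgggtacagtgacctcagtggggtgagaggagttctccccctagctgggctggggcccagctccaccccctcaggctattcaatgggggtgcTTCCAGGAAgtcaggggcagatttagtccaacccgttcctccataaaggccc
Steap4: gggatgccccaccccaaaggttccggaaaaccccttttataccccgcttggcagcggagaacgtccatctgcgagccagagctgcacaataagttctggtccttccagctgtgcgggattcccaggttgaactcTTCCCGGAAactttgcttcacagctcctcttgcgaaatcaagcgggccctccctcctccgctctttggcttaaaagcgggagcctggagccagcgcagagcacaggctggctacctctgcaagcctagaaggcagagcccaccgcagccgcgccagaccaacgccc
Lcn2: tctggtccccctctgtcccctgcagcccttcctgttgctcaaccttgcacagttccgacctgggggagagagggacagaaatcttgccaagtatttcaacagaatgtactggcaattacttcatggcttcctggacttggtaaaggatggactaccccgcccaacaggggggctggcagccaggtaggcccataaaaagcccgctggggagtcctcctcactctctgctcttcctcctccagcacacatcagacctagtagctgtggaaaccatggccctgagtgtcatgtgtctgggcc
Emp1: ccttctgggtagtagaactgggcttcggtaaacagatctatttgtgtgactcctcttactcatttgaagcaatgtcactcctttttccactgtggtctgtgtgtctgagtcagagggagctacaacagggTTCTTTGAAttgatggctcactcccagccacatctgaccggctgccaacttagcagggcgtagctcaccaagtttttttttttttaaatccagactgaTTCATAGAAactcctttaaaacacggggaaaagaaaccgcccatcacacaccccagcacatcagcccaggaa
A promoter was given for 9 of the 10 genes, and 3 of these (Gfap, Steap4 and Emp1) held TTCNNNGAA. The motif was present in 8.3% of the 32851 promoters of the same length. The AP-1 motif TGANTCA, searched on both strands, was found only in Emp1 among the members, against 7.81% of all promoters, and 1 of its 2 matches there overlaps a TTCNNNGAA match. The NF-kB consensus was found in Vim and Steap4, against 4.51% of all promoters. These are matches of letters in a short window, and no binding was measured.

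The filament genes were higher in vector-injected brain on every vector array apart from HS replicate 1. Gfap, the filament protein by which reactive astrocytes are recognised, had log2 values of 11.91, 11.90 and 11.84 in MC+HS mice and 9.82, 11.97 and 12.18 in HS mice, against 10.25, 11.35 and 10.21 in mock mice. All MC+HS arrays lay above all mock arrays, whereas HS replicate 1 was the lowest of the 9 arrays. With the other 2 Gfap probe sets HS replicate 1 was at 9.61 and 8.92, inside the mock ranges of 9.14 to 10.28 and 8.65 to 10.16. With all 9 arrays the difference of MC+HS from mock was 1.28 ± 0.60 (log2, SE) and did not pass the limma test (adjusted p = 1), and that of HS was 0.72 ± 0.60 (limma adjusted p = 0.635). Without HS replicate 1, Gfap rose 2.43-fold in MC+HS mice (limma adjusted p = 0.0146) and 2.77-fold in HS mice (limma adjusted p = 0.012) over mock mice.

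Vim encodes vimentin, the filament protein that co-assembles with GFAP in reactive astrocytes and is also made by endothelial and other mesenchymal cells. Its log2 values were 12.47, 12.59 and 12.47 in MC+HS mice and 11.77, 12.62 and 12.74 in HS mice, against 10.85, 11.89 and 11.12 in mock mice. Mock replicate 2 was above HS replicate 1, so the HS and mock groups overlapped, while MC+HS and mock did not. The log2 difference from mock was 1.23 ± 0.35 (SE) in MC+HS mice (limma adjusted p = 0.38) and 1.09 ± 0.35 in HS mice (limma adjusted p = 0.463) with all arrays. On leaving out HS replicate 1, Vim rose by 1.23 ± 0.21 in MC+HS mice (limma adjusted p = 0.0067) and by 1.39 ± 0.23 in HS mice (limma adjusted p = 0.00574).

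Of the secreted proteins, Lcn2 showed the widest range. It encodes lipocalin-2, an iron-siderophore binding protein of innate immunity that reactive astrocytes, endothelium and neutrophils can release. Lcn2 had log2 values of 12.65, 12.54 and 12.75 in MC+HS mice and 8.12, 12.76 and 13.02 in HS mice, against 9.10, 10.01 and 7.18 in mock mice. The 5 vector arrays other than HS replicate 1 lay within a narrow band well above every mock array, and HS replicate 1 lay inside the mock range. With all arrays the log2 difference was 3.88 ± 1.21 (SE) for MC+HS (limma adjusted p = 0.489) and 2.54 ± 1.21 for HS (limma adjusted p = 0.635). In the 8-array fit, Lcn2 rose 14.8-fold in MC+HS mice (limma adjusted p = 0.00151) and 17.5-fold in HS mice (limma adjusted p = 0.00189). The mock values themselves had an SD of 1.45, so the fold depends on which mock array is taken.

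Timp1 encodes a secreted inhibitor of matrix metalloproteinases. Its log2 values were 10.51, 10.49 and 10.59 in MC+HS mice and 8.26, 10.50 and 11.06 in HS mice, against 7.86, 8.94 and 7.41 in mock mice. HS replicate 1 lay below mock replicate 2 and above the other mock arrays. The log2 difference with all arrays was 2.46 ± 0.66 (SE) for MC+HS (limma adjusted p = 0.298) and 1.87 ± 0.66 for HS (limma adjusted p = 0.554). After removal of HS replicate 1, Timp1 rose 5.49-fold in MC+HS mice (limma adjusted p = 0.00105) and 6.54-fold in HS mice (limma adjusted p = 0.000969).

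Steap4, a metalloreductase of endosomal and plasma membranes that reduces iron and copper, was the one member gene called with all 9 arrays. Its log2 values were 8.03, 8.23 and 7.70 in MC+HS mice and 6.89, 8.52 and 8.55 in HS mice, against 4.67, 6.12 and 4.53 in mock mice. All 6 vector arrays, HS replicate 1 included, were above all 3 mock arrays. With all arrays the log2 difference from mock was 2.88 ± 0.53 (SE) for HS (limma adjusted p = 0.0496) and 2.88 ± 0.53 for MC+HS (limma adjusted p = 0.0578). Without HS replicate 1 Steap4 rose by 2.88 ± 0.35 in MC+HS mice (limma adjusted p = 0.000975) and by 3.43 ± 0.40 in HS mice (limma adjusted p = 0.000579). Its signal was under the 40th percentile of the array in all 3 mock mice, so it passed the filter on low values only through vector arrays, and its size depends on the pseudocount: the HS difference was 3.91 with a pseudocount of 1 (adjusted p = 0.0715) and 1.86 with 64 (adjusted p = 0.0542). Leaving out any single array other than HS replicate 1 or mock replicate 2 also ended the HS call.

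Cd44, the hyaluronan receptor of reactive astrocytes and leukocytes, had log2 values of 8.87, 9.44 and 9.24 in MC+HS mice and 8.47, 9.45 and 9.34 in HS mice, against 7.80, 8.51 and 7.52 in mock mice. Only HS replicate 1 and mock replicate 2 overlapped across vector and mock mice, and they differed little. Its log2 difference with all arrays was 1.24 ± 0.33 (SE) for MC+HS (limma adjusted p = 0.284) and 1.14 ± 0.33 for HS (limma adjusted p = 0.326). Without HS replicate 1, Cd44 rose by 1.24 ± 0.23 in MC+HS mice (limma adjusted p = 0.0115) and by 1.45 ± 0.25 in HS mice (limma adjusted p = 0.00834).

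S1pr3 encodes a receptor for sphingosine-1-phosphate, a lipid signal of inflamed tissue. It had log2 values of 11.15, 11.13 and 10.92 in MC+HS mice and 8.63, 11.52 and 11.35 in HS mice, against 9.66, 10.36 and 9.39 in mock mice. HS replicate 1 was the lowest of all 9 arrays with this probe set. With the other tested S1pr3 probe set it was at 8.71, above the mock range of 7.32 to 7.95 and above MC+HS replicate 3 at 8.51. With all arrays the log2 difference was 1.26 ± 0.68 (SE) for MC+HS (limma adjusted p = 1) and 0.70 ± 0.68 for HS (limma adjusted p = 0.653). In the fit of 8 arrays, S1pr3 rose by 1.26 ± 0.20 in MC+HS mice (limma adjusted p = 0.00471) and by 1.63 ± 0.22 in HS mice (limma adjusted p = 0.00166).

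Aspg encodes an asparaginase, an enzyme that cleaves asparagine. Its log2 values were 8.88, 9.20 and 9.15 in MC+HS mice and 8.52, 9.38 and 9.26 in HS mice, against 7.51, 8.46 and 7.82 in mock mice. The vector and mock arrays did not overlap, although HS replicate 1 exceeded mock replicate 2 by little. With all arrays the log2 difference was 1.15 ± 0.29 (SE) for MC+HS (limma adjusted p = 0.244) and 1.13 ± 0.29 for HS (limma adjusted p = 0.239). With HS replicate 1 set aside, Aspg rose by 1.15 ± 0.20 in MC+HS mice (limma adjusted p = 0.00957) and by 1.39 ± 0.23 in HS mice (limma adjusted p = 0.00555).

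The ischaemia-associated genes Emp1 and Cd109 were not called in either setting. Emp1, a tetraspan membrane protein of epithelial and other cells, had log2 values of 7.18, 7.83 and 7.90 in MC+HS mice and 7.58, 7.65 and 7.89 in HS mice, against 6.40, 7.34 and 6.86 in mock mice. All HS arrays were above all mock arrays, and MC+HS replicate 1 was below mock replicate 2. Emp1 was under the 40th percentile on 2 mock arrays, so it passed the filter only through vector arrays. With all arrays its log2 difference was 0.77 ± 0.27 (SE) for MC+HS (limma adjusted p = 0.661) and 0.84 ± 0.27 for HS (limma adjusted p = 0.462). Over the 8 remaining arrays the difference was 0.77 ± 0.25 for MC+HS (limma adjusted p = 0.165) and 0.91 ± 0.28 for HS (limma adjusted p = 0.147). Cd109, a GPI-anchored co-receptor that restrains TGF-beta signalling, was not tested, as both of its probe sets failed the filter on low values: the one that stands for the gene was under the 40th percentile on all 9 arrays and the other on 8. The first had log2 values of 6.03, 6.69 and 6.62 in MC+HS mice and 6.41, 6.67 and 6.16 in HS mice, against 6.52, 6.29 and 4.54 in mock mice. These ranges overlap, and the low mock mean rests on mock replicate 3: the MC+HS difference from mock was 0.66 with it and 0.04 without it.

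**Figure D1:**
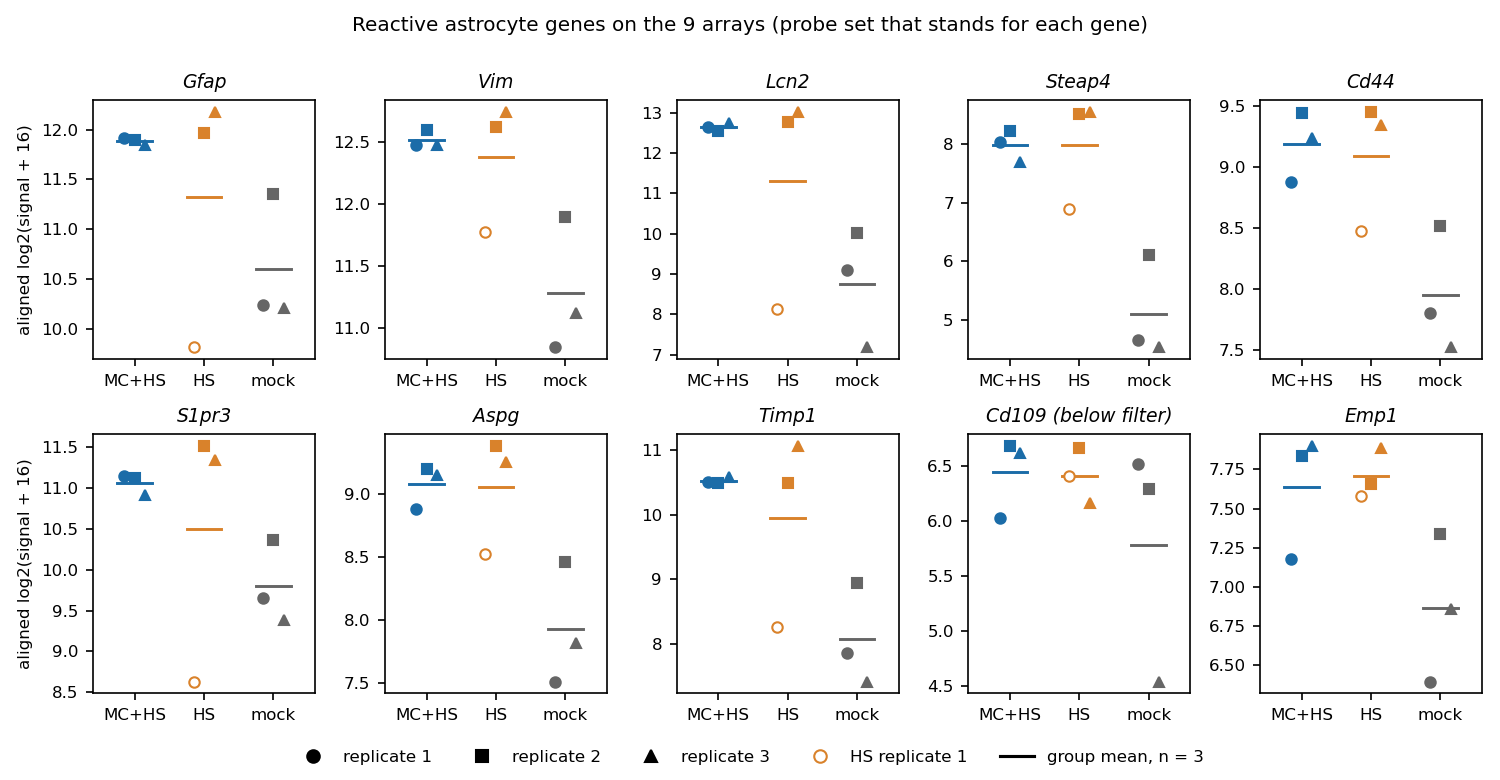
Log2(signal + 16) of the probe set that stands for each of the 10 genes, 1 panel per gene, with MC+HS, HS and mock mice from left to right. Points are single arrays (open circle: HS replicate 1) and bars are group means; HS replicate 1 lies far below the other HS arrays for Lcn2, at 8.12.

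Counted as genes, 0 of the 9 tested members were called higher in MC+HS than in mock mice with all 9 arrays, beside 0.690% of all tested genes. In HS against mock mice, 1 of 9 (Steap4) was called higher, beside 0.893% of all tested genes. Steap4 was tested only because vector arrays passed the filter, which limits this count and the others that hold it. Emp1 was also tested only because vector arrays passed the filter. On leaving out HS replicate 1, 8 of 9 members were called higher in MC+HS mice, beside 3.25% of all genes, and 8 of 9 in HS mice, beside 3.82%. The members and the further lists were chosen with earlier results of these data known. Their counts here and below therefore describe these genes and are no independent test. Emp1 was the tested member not called in either vector group. The members' median log2 difference without HS replicate 1 was 1.26 for MC+HS and 1.47 for HS, against 0.01 and 0.05 over all tested genes. Among the 22 probe sets, 16 were tested, and with all 9 arrays an unadjusted limma p under 0.05 was reached by 12 of them for MC+HS, beside 4.89% of all probe sets, and by 9 for HS, beside 6.67%.

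Groups that do not overlap are a simpler reading of the same arrays. With all 9 arrays, every MC+HS array was above every mock array in 8 of 9 members, all but Emp1, beside 11.0% of all tested genes. Every HS array was above every mock array in 3 of 9 members (Steap4, Aspg and Emp1), beside 4.82% of all genes. Without HS replicate 1, the HS count was 9 of 9, beside 26.0% of all genes. Steap4 and Emp1 passed the filter only through vector arrays, which limits these counts. Steap4 is in each of them, and Emp1 is in both HS counts.

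**Figure D2:**
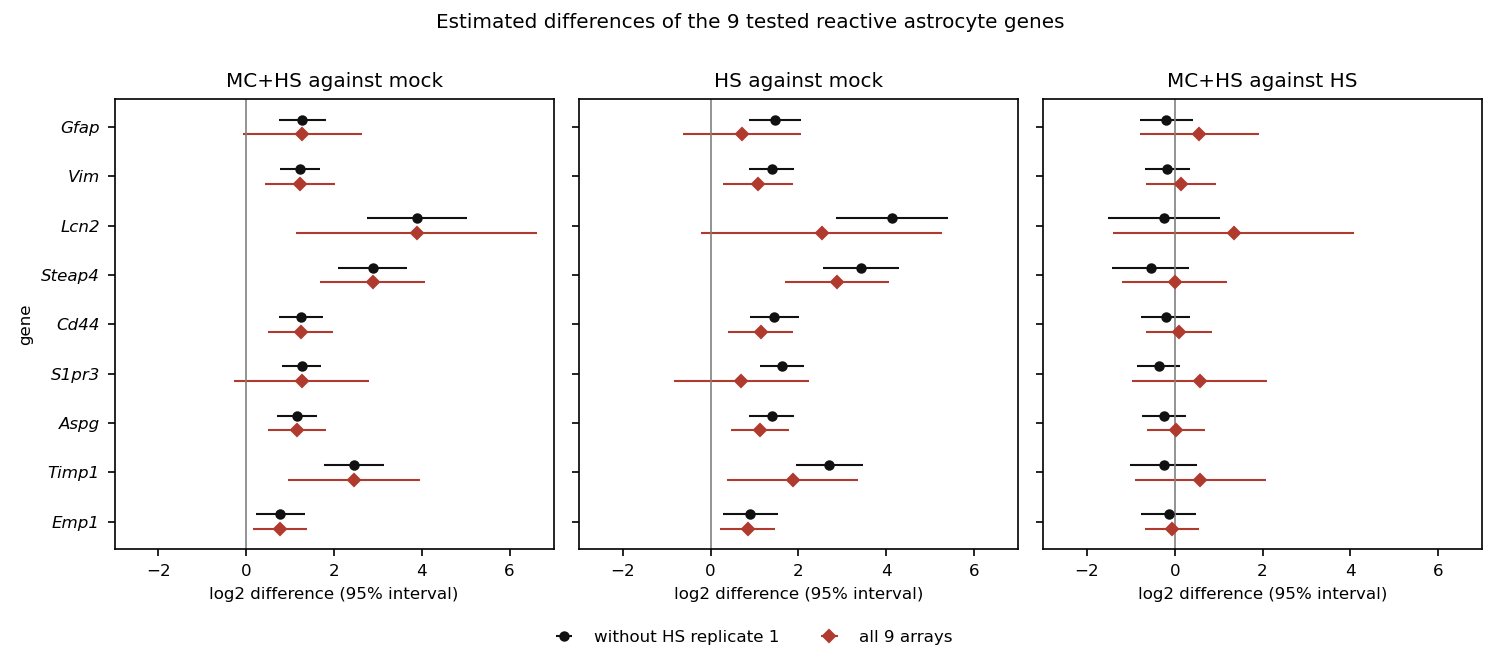
Log2 differences with 95% intervals for the 9 tested genes in the 3 comparisons, from the fit with all 9 arrays and from the fit without HS replicate 1. Without HS replicate 1 the intervals narrow and every difference of MC+HS from HS lies below 0, between -0.55 and -0.13.

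The counts of called members differ most without HS replicate 1. By the probe sets that stand for the genes, HS replicate 1 was the lowest HS array in 9 of the 10 genes, beside 82% of all tested genes. Mock replicate 2 was the highest mock array in 9 of the 10 genes, beside 38.3% of all tested genes. The members' median difference from the mock mean was 1.25, 1.32 and 1.23 on the MC+HS arrays and 0.51, 1.48 and 1.50 on the HS arrays, against -0.28, 0.59 and -0.42 on the mock arrays. The mean of the other pan-reactive list was 0.55 on mock replicate 2, and that of the monocyte markers 0.52, where that of the astrocyte identity markers was 0.06. Their part in the members' values was not tested. Leaving out mock replicate 2 gave 1 called member in each of MC+HS and HS against mock, and leaving out any of the other 7 arrays gave 0 in each. Without mock replicate 2, 188 probe sets of the whole array were called higher for MC+HS and 238 for HS. When any of the other 7 arrays was left out, this total was 10 to 114 for MC+HS and 67 to 127 for HS. With all 9 arrays it was 157 for MC+HS and 211 for HS, so calls fell over the whole array as well.

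Other probe sets of the same genes were compared as well. When HS replicate 1 was left out, 14 of the 16 tested probe sets were called higher against mock in each of the vector groups, beside 2.51% of all probe sets for MC+HS and 2.97% for HS. With all 9 arrays 0 were called in MC+HS mice, beside 0.556% of all probe sets, and 3 in HS mice, beside 0.747%. The 3 were the Steap4 probe set above, the dimmer of the 2 tested for Cd44 (log2 difference 1.38, limma adjusted p = 0.0374) and the dimmer of the 2 tested for S1pr3 (log2 difference 1.51, limma adjusted p = 0.0325). The dimmer Emp1 probe set had log2 values of 5.73, 6.98 and 6.999 in MC+HS mice and 6.88, 6.91 and 6.87 in HS mice, against 6.76, 6.82 and 7.06 in mock mice, with no separation of the groups. On Vim, HS replicate 1 had a log2 value of 9.94 with another probe set, under all mock arrays, although it had 11.77 with the one that stands for the gene.

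**Figure D3:**
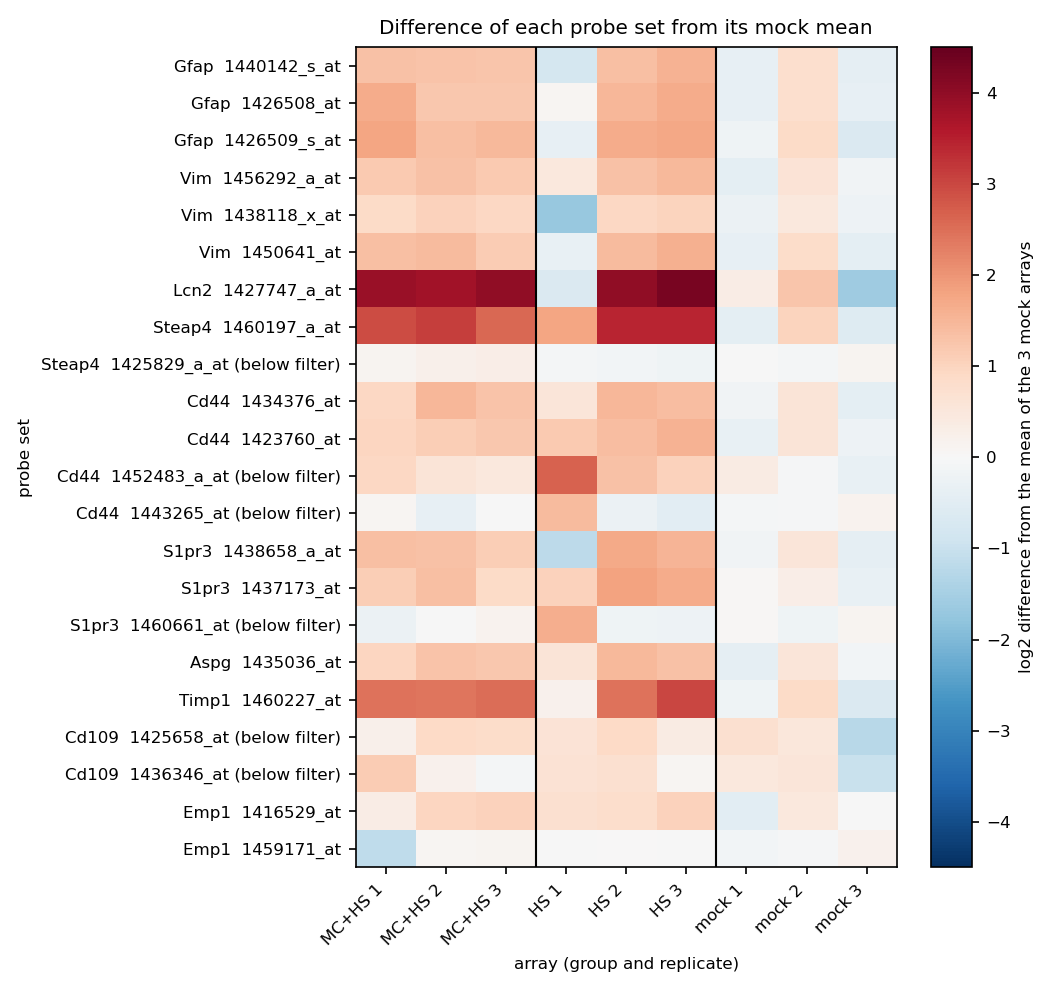
Difference of each of the 22 member probe sets from its mock mean (log2, colour scale), with probe sets in rows and arrays in columns, MC+HS first, then HS and mock. By the probe sets that stand for the genes, HS replicate 1 was the lowest HS array in 9 of 10, and mock replicate 2 the highest mock array in 9 of 10.

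Between the purifications, no member was called. With all 9 arrays the log2 difference of MC+HS from HS mice ran from -0.07 (Emp1) to 1.35 (Lcn2), the smallest limma adjusted p was 0.728, and 0% of all tested genes were called in either direction. The 95% intervals spanned -1.40 to 4.09 over the 9 genes, so differences of several fold in Lcn2 are inside them. After removal of HS replicate 1, all 9 differences were below 0, from -0.55 (Steap4) to -0.13 (Emp1), and the smallest limma adjusted p was 0.736, where 0.00756% of all genes were called higher and 0% lower. The 95% intervals then spanned -1.52 to 1.03. In 6 of the 9 genes all MC+HS arrays were below both remaining HS arrays, beside 15.8% of all genes. The direction of 7 of these differences turned when HS replicate 1 was left out, and neither direction passed the test.

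Further genes of the reactive state were read on the same arrays. Their counts stand beside 0.690% of all tested genes called higher in MC+HS mice and 0.893% in HS mice with all arrays. Without HS replicate 1 these shares were 3.25% in MC+HS mice and 3.82% in HS mice. Of the other pan-reactive genes (Hspb1, Cxcl10, Osmr, Cp and Serpina3n), 0 of 5 were called in MC+HS mice and 1 of 5 (Osmr) in HS mice with all arrays, and 5 of 5 in each without HS replicate 1. Cxcl10, a chemokine that draws T cells, rose 13.4-fold in MC+HS mice (limma adjusted p = 5.17e-05) and 23.4-fold in HS mice (limma adjusted p = 2.71e-05) over mock mice without HS replicate 1. Osmr, the oncostatin M receptor, rose 2.68-fold in HS mice with all arrays (limma adjusted p = 0.0462), a call that was lost on leaving out any single array other than HS replicate 1 or mock replicate 2. The neuroinflammatory (A1) list had 3 of 9 named genes called in each vector group with all arrays, namely H2-D1, Iigp1 and Gbp2, and 7 of 9 without HS replicate 1. Leaving out any MC+HS array, or mock replicate 1 or 3, gave 0 called A1 genes in MC+HS mice and 1 in HS mice. The whole array then had 10 to 33 probe sets called higher for MC+HS and 68 to 127 for HS. With all arrays these totals were 157 and 211. Without HS replicate 2 the A1 count was 2 in MC+HS mice and 1 in HS mice, and without HS replicate 3 it was 3 in MC+HS mice and 1 in HS mice. The whole-array totals for MC+HS and HS were 85 and 68 probe sets without HS replicate 2, and 114 and 67 without HS replicate 3. Iigp1, an interferon-induced GTPase, rose 7.71-fold in MC+HS mice and 10.7-fold in HS mice with all arrays (limma adjusted p = 0.00782 for MC+HS and 0.00288 for HS). The other A2 genes gave 0 of 9 tested in each vector group with all arrays and 5 of 9 without HS replicate 1. Ptx3, Tgm1 and Clcf1 of this list were under the 40th percentile on 2 mock arrays each. They passed the filter only through vector arrays, which limits these counts. Ptx3, a pattern-recognition pentraxin, had a log2 difference of 2.90 ± 0.58 (SE) in MC+HS mice with all arrays (limma adjusted p = 0.0845).

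The known inducers were read in the same way, beside the same shares of all tested genes. These were 0.690% (MC+HS) and 0.893% (HS) with all arrays, and 3.25% and 3.82% without HS replicate 1. Of the gp130 cytokines, receptors and STAT3, 2 of 9 were called in each vector group with all arrays, Il6 and Socs3. Leaving out any MC+HS array, or mock replicate 1 or 3, gave 0 called gp130 genes in MC+HS mice and 1 in HS mice, and leaving out HS replicate 2 or 3 gave 1 in MC+HS mice and 0 in HS mice. The whole array had 10 to 33 probe sets called higher for MC+HS and 68 to 127 for HS in the former fits. In the latter it had 85 or 114 for MC+HS and 68 or 67 for HS, against 157 and 211 with all arrays. Il6, the cytokine that signals through gp130, was under the 40th percentile in all 3 mock mice, and it passed the filter only with HS replicate 1 in the fit, so no fold is given for it. Once HS replicate 1 was left out, 2 of the 7 genes then tested were called in each vector group, Socs3 and Stat3. Socs3, the feedback inhibitor of the receptor, rose 4.60-fold in MC+HS mice (limma adjusted p = 0.026) and 4.30-fold in HS mice (limma adjusted p = 0.0253) with all arrays, and 4.60-fold in MC+HS mice and 5.41-fold in HS mice without HS replicate 1. Of the microglial signals, 0 of 5 were called in each vector group with all arrays, and without HS replicate 1 C1qa and C1qb, subunits of complement C1q, were called in both groups. Il1b, which encodes IL-1 beta, was then called in HS mice (limma adjusted p = 0.0419) and had limma adjusted p = 0.0999 in MC+HS mice; whether the groups differ in this was not shown (adjusted p = 0.816). Of the filament and cytoskeletal partners, 0 of 6 were called with all arrays and 1 of 6, Tubb6, without HS replicate 1 in each vector group. Tubb6, a beta-tubulin, had a log2 difference of 2.11 ± 0.41 (SE) in MC+HS mice with all arrays (limma adjusted p = 0.0763), while Nes, the filament protein nestin, had 0.45 ± 0.15 (limma adjusted p = 0.58). Tubb6 was under the 40th percentile on 2 mock arrays and passed the filter only through vector arrays, which limits its call.

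The label was checked against astrocyte markers and against markers of cells that also make these proteins. Of all tested genes, 0.690% (MC+HS) and 0.893% (HS) were called higher with all arrays, and 3.25% and 3.82% without HS replicate 1. The 14 astrocyte identity markers, among them Aldh1l1, Aqp4 and Slc1a2, were above the 40th percentile on every array, and 0 of 14 were called in either vector group with all arrays. In the fit of 8 arrays, 1 of 14 was called in MC+HS mice and 3 of 14 in HS mice, with median differences of 0.08 and 0.20, against 1.26 and 1.47 for the members. Their summed signal was 66900 to 78340 in MC+HS mice and 16550 to 79120 in HS mice, the low end being HS replicate 1, against 67730 to 69960 in mock mice.

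Markers of other cell types are given beside the members they bear on. The shares of all tested genes given for the astrocyte markers apply to their counts as well. Among the 9 named neutrophil markers, which bear on Lcn2, the summed signal was 839.6 to 1068 in MC+HS mice and 1113 to 1354 in HS mice, against 661.5 to 887.2 in mock mice. S100a8 and S100a9 were called in HS mice and S100a9 in MC+HS mice with all arrays, and between 5 and 8 of the 9 genes were under the 40th percentile on any array. S100a9 was under that percentile on 3 arrays and S100a8 on 5, with the mock arrays lowest for both. Both genes thus passed the filter only through vector arrays, which limits what their calls show. Mmp8, Camp and Mpo, which encode granule proteins of neutrophils, were under it on all 9 arrays, and Elane and Cxcr2 on 8. Monocyte markers, which bear on Cd44 and Timp1, had 1 of 6 called in each vector group with all arrays (Chil3) and 3 of 6 without HS replicate 1. The monocyte summed signal was 6280 to 6778 in MC+HS mice and 2680 to 8270 in HS mice, against 2189 to 3717 in mock mice. Its low end in HS mice was again HS replicate 1, where HS replicates 2 and 3 had 7724 and 8270. Endothelial markers, which bear on Vim and Emp1, had 0 of 10 called in each vector group with all arrays and 3 of 10 without HS replicate 1. Their summed signal was 9235 to 10180 in MC+HS mice and 5793 to 11900 in HS mice, against 6576 to 7475 in mock mice. The low end in HS mice was HS replicate 1, where HS replicates 2 and 3 had 10130 and 11900. The part of these cells in the members' values was not tested.

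**Figure D4:**
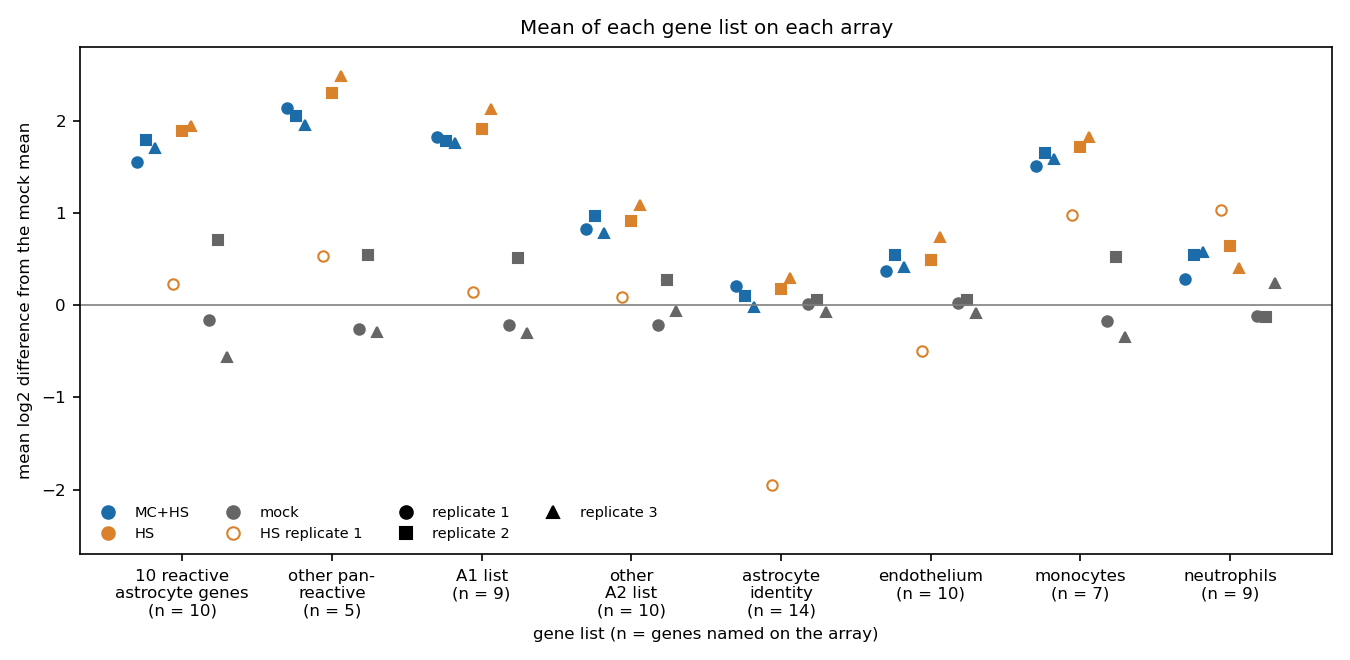
Mean log2 difference from the mock mean of each gene list on each array, with MC+HS, HS and mock arrays from left to right within a list and HS replicate 1 as an open circle. On vector arrays other than HS replicate 1 the 4 reactive lists lie between 0.78 and 2.48, and the astrocyte identity markers between -0.02 and 0.29, with -1.95 on HS replicate 1.

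Over the 9 arrays, the profiles nearest to Gfap, by the root mean square difference of log2 differences from mock, were S1pr3 (0.203), B2m (0.216), Hspb8 (0.248) and H2-M3 (0.261), where the median gene was at 1.09. S1pr3 is itself a member, and Vim ranked 38th and Cd44 63rd. Nearest to Lcn2 were Slfn4 (0.640), Saa3 (0.709), Mx2 (0.815) and Bst2 (0.818), where the median gene was at 3.05. Steap4 ranked 24th and Timp1 26th from Lcn2, ahead of Gfap at 173rd. These distances describe 9 arrays that share 3 groups and the low HS replicate 1.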

How the data were processed

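Bulk brain tissue from around the injection sites of 9 mice was measured on Affymetrix arrays, 3 per group. The authors deposited linear probe set intensity values, for which the submitters' processing notes name GCOS 1.4.0.036; the summarisation and scaling are not given in the sources used here. Values were converted to log2(signal + 16), array medians were aligned, and 28257 of 45101 probe sets above the 40th percentile of their array on at least 3 arrays were tested (64 controls left out). Probe sets were named by the platform annotation (34945 with a single symbol, 932 with several, 9160 with none). A gene was represented by its probe set with the highest mean. limma 3.58.1 (R 4.3.3, statmod 1.5.0) fitted all 9 arrays with an intensity trend, and the Benjamini-Hochberg adjustment ran over all tested probe sets of a comparison, two-sided, with calls under 0.05. The fit without HS replicate 1 repeats the filter on 8 arrays. The procedure was tested on simulated data in which every array had the same spread, so that test does not cover a deviant array such as HS replicate 1. Intensities carry no count, so the number of arrays limits the precision.

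Genes were named by rule: all members with their probe sets, from each pathway list the 3 genes with the smallest p per comparison, and the 4 genes nearest to Gfap and to Lcn2. The members and lists were chosen with earlier results of these data known. Alternatives were other pseudocounts, filters, normalizations, probe set averaging, fits on only the arrays compared, a replicate block, and each array left out. Promoters came from RefSeq (GRCm38.p6). No detection calls were used.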

Additional observations from a re-analysis of the deposited data

How the results depend on the processing

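With all 9 arrays, the number of called members was 0 in MC+HS against mock mice and 1 in HS against mock mice. For MC+HS it was 8 with only the 6 arrays compared and 1 with the mean of probe sets, and for HS it was 2 with quantile normalization and 0 with a pseudocount of 1 or 64, with no filter, with the 60th percentile filter or with only the 6 arrays compared. The total called higher moved too. Other filters, averaging and left-out arrays also change how much was tested, so these totals are not shares. For MC+HS it was 157 probe sets in the main fit and 564 with only the 6 arrays compared. With the mean of probe sets it was 156, which counts gene averages and unnamed probe sets out of a smaller total. For HS it was 211 in the main fit, 280 with quantile normalization and 15 with only the 6 arrays compared. With a pseudocount of 1 or 64 the HS total was 198 or 219, with no filter 161 and with the 60th percentile filter 129. Leaving out single arrays gave 0 to 8 called members in each of these comparisons, with 8 only when HS replicate 1 was left out, and 0 to 0 in MC+HS against HS. Without HS replicate 1 the total was 701 probe sets called higher for MC+HS and 830 for HS. Leaving out HS replicate 1 and mock replicate 2 together, an alternative chosen after seeing the data, gave 9 in each vector group. The total was then 841 probe sets called higher for MC+HS and 980 for HS. The replicate block left 0 in MC+HS and 1 in HS against mock, and 0 between the purifications. In that fit 94 probe sets of the whole array were called higher for MC+HS and 145 for HS. Same-numbered arrays had correlations of deviations from -0.17 to 0.29, so the numbers are not taken as pairs. No member changed direction against mock. Between MC+HS and HS the direction changed for Steap4 (0.024 with a pseudocount of 1, 0.17 with quantile normalization), Aspg (-0.0138 with a pseudocount of 64, -0.21 with quantile normalization, -0.25 without centring), Vim (-0.16 with quantile normalization, -0.14 without centring) and Cd44 (-0.13 with quantile normalization, -0.18 without centring, -0.092 with the mean of probe sets). Leaving out single arrays, these differences ran from -0.19 to 0.99 for Gfap, -0.17 to 0.32 for Vim, -0.24 to 2.21 for Lcn2, -0.55 to 0.28 for Steap4, -0.21 to 0.28 for Cd44, -0.37 to 1.08 for S1pr3, -0.24 to 0.19 for Aspg, -0.25 to 1.15 for Timp1 and -0.20 to 0.16 for Emp1. The cause of these changes was not tested. Signals of Cd109 and, in mock mice, of Steap4 lay near the low end of the arrays, which limits their folds.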

Other observations

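Among markers of other cells, chosen for naming after their values were seen, Chil3, Plac8 and Ms4a4c of the monocyte list rose in both vector groups without HS replicate 1. Chil3, a chitinase-like protein, had log2 values of 8.38, 8.18 and 8.16 in MC+HS mice and 7.70, 8.70 and 8.82 in HS mice, against 5.52, 4.86 and 5.42 in mock mice. It was called with all 9 arrays too (limma adjusted p = 0.00649 in MC+HS mice and 0.00324 in HS mice), but all 3 mock arrays were under the 40th percentile, so it passed the filter only through vector arrays and no fold is given. Ms4a4c was under the percentile on 2 arrays, mock replicates 1 and 3 being its lowest. Cldn5, a tight junction protein of brain endothelium, rose by 0.96 ± 0.11 (log2, SE) in MC+HS mice (limma adjusted p = 0.000536) and by 1.13 ± 0.12 in HS mice (limma adjusted p = 0.000346) without HS replicate 1, and with all 9 arrays it had limma adjusted p = 0.58 in MC+HS mice and 0.635 in HS mice. In the pericyte and fibroblast list, 0 of 9 genes were called in either vector group with all arrays and 1 of 9, Dcn, in each without HS replicate 1. Without that array 5 of the 9 differences from mock were above 0 in MC+HS mice and 7 in HS mice, with medians of 0.04 and 0.20 (log2). Col1a1 was lower on every vector array than on any mock array, and Lum on every vector array other than HS replicate 1. Of the remaining marker lists, with all 9 arrays 2 of 8 homeostatic microglial genes were called lower in MC+HS mice and 1 of 8 in HS mice, and 3 of 8 in each without HS replicate 1. Of all 28257 probe sets, 7 (MC+HS) and 8 (HS) were called lower with all arrays. Of 27973 without HS replicate 1, 233 and 100 were. Counts of genes called higher in this section stand beside 0.690% (MC+HS) and 0.893% (HS) of all tested genes with all arrays, and 3.25% and 3.82% without HS replicate 1. Of 7 tested NK and T cell genes, 2 were called higher in each vector group with all arrays and 3 in each without HS replicate 1. Gzma and Gzmb of this list were under the 40th percentile on 3 arrays each and Nkg7 on 4, with the mock arrays lowest. These genes passed the filter only through vector arrays, so the counts for this list are limited by that. No tested neuronal gene (0 of 8) was called in either vector group in either setting, with median log2 differences of -0.01 in MC+HS mice and 0.01 in HS mice without HS replicate 1. Of 7 oligodendrocyte genes, 1 was called higher in HS mice without HS replicate 1, and of 7 choroid plexus and ependymal genes, 1 was called lower in each vector group without HS replicate 1.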
